A study of Mus musculus with 6 samples.

Results

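Histone genes were followed in mouse hair follicle cells 3 days after the skin was treated with vehicle or with the carcinogen DMBA (7,12-dimethylbenz[a]anthracene). Members were the genes whose current or older mouse symbol is that of a linker histone (H1) or a core histone (H2A, H2B, H3 or H4) and that had a probe on the array. There were 57 such genes, read by 70 probes, among 21368 genes with a probe and a symbol, and 46 of them matched by their current symbol alone. Of the 57, 40 were replication-dependent histone genes, named Hist followed by a number in the older nomenclature, and 17 were variant histone genes. Both groups were male mice that were depilated and treated on the skin, 3 mice with acetone, the vehicle, and 3 with DMBA. Cells of the epidermis with a high keratin 15 reporter (K15-EGFP), high ITGA6 and no surface Sca1 were sorted and called hair follicle stem cells and hair germ in the labels. The sources used here give no strain, age or dose. Each mouse gave 1 array.

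Histones are the proteins around which DNA is wound. Replication-dependent genes lie in clusters, are transcribed in S phase when new chromatin is packed, and give mRNAs that end in a stem-loop, bound by SLBP, rather than in a poly(A) tail. Variant histones such as H2A.Z, H2A.X, H3.3 and macroH2A are made throughout the cell cycle from polyadenylated mRNAs (H2A.X from both forms) and are placed at promoters, damaged DNA or silenced chromatin. The sources used here do not say how cDNA was primed. Replication-dependent genes are near-identical in their coding sequence, the probe sequences were not used here, and a value named for one such gene may hold signal from its copies.

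The promoters of 5 members are shown because most bright replication-dependent genes moved together across the arrays, and most variant genes did not move with them. H2bc14, H4c4 and H4c12 were the replication-dependent genes with the highest signal, and H3f3b and H2az1 encode the variants H3.3 and H2A.Z. Each line holds the 250 bases before an annotated start, from RefSeq (GRCm38.p6). For H3f3b that start lies inside the annotated span of the gene, so its stretch is not upstream of the whole gene. Capitals mark 3 motifs, searched on both strands, whose hits may overlap. CCAAT is the CCAAT box. TATAA is the core of the TATA box. ATTTGCAT is the octamer known from H2B promoters.
H2bc14 (chr13:21721794-21722043, plus strand): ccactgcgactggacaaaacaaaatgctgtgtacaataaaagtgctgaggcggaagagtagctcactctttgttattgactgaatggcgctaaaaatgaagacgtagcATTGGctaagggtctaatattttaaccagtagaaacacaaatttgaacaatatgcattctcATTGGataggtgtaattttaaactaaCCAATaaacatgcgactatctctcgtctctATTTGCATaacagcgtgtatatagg
H4c4 (chr13:23581318-23581567, plus strand): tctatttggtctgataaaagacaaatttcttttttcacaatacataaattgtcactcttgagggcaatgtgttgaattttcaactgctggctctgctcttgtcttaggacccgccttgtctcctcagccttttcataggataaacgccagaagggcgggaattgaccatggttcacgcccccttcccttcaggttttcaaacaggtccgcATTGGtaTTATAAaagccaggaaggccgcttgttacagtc
H4c12 (chr13:21750554-21750803, minus strand): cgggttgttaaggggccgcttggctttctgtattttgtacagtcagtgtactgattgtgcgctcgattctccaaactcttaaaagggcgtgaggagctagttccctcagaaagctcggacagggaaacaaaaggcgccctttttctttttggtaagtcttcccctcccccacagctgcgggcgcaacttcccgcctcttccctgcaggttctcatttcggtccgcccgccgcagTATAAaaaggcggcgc
H3f3b (chr11:116024505-116024754, minus strand): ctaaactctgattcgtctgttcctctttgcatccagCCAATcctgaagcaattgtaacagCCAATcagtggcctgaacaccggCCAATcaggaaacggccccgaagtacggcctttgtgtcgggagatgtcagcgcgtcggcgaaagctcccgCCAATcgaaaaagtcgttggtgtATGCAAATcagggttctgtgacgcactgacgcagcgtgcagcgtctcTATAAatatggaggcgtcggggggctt
H2az1 (chr3:137864237-137864486, plus strand): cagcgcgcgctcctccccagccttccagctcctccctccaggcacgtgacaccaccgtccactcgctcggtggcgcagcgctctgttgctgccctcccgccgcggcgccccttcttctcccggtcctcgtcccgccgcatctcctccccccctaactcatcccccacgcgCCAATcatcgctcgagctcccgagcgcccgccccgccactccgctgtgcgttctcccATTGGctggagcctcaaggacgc
An entry was found for 50 of the 57 members. TATAA was present in 24 of 36 promoters of replication-dependent genes (66.7%), in 1 of 15 variant promoters (6.67%) and in 22.8% of all 32851 promoters. CCAAT was present in 30 of the 36 and in 9 of the 15, against 33.8% of all promoters. The exception was H4, where 2 of 8 promoters held CCAAT. ATTTGCAT was present in 5 of 8 H2B and 4 of 11 H2A promoters, in 0 of the replication-dependent H1, H3 and H4 promoters, and in 1.6% of all promoters. The promoter of H3f3b held 4 CCAAT, 1 TATAA and 1 ATTTGCAT, so the 1 variant promoter with TATAA and the 1 with the octamer were both that of H3f3b. A match describes these letters and not the binding of a factor.

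Levels are given as log2 intensity minus the log2 of the 75th percentile of the array, so that 0 is the level of that percentile. Differences are DMBA minus vehicle on this log2 scale. The labelled cell type was checked first, and 11 of 11 of its markers were well above background on all 6 arrays, with Krt15 at 52.2 to 89.9 times the 75th percentile. The summed linear level of these markers, in the same unit, ranged from 351 to 410 in vehicle and from 364 to 532 in DMBA. Bright keratin genes make up most of that sum, and 7 of the 11 markers had a negative difference. Lgr5 (-0.64, SE 0.22) and Sox9 (-0.50, SE 0.24), both markers of these stem cells, were lower on every DMBA array than on any vehicle array, and neither passed the test in limma (adjusted p = 0.894 and 0.967). Markers of other cells were also present. Of the melanocyte markers 7 of 8 were above background on all arrays (sums 2.95 to 4.46 in vehicle, 4.14 to 6.75 in DMBA), of the leukocyte markers 7 of 8 (2.61 to 7.64 and 3.44 to 4.37) and of the fibroblast markers 4 of 6 (1.02 to 3.13 and 2.58 to 3.18). Of the endothelial markers 2 of 4 were above background on all arrays (2.40 to 2.51 and 2.36 to 3.79) and of the erythroid markers 3 of 4 (0.405 to 4.22 and 0.764 to 5.21), and Pdgfra, which marks fibroblasts, was above background on 0 arrays. Some single markers had groups apart. Dcn (1.51, SE 0.25) and Col1a1 (1.29, SE 0.57) of fibroblasts were higher after DMBA. So were H2-Eb1 of leukocytes (2.30, SE 0.45) and Eng of endothelium (1.14, SE 0.57), while H2-Aa of leukocytes was lower (-0.49, SE 0.23). None of these passed in limma (adjusted p from 0.445 to 0.967). Of those tested, 3 of 4 fibroblast, 4 of 8 leukocyte and 2 of 3 endothelial markers had a positive difference. Ly6a, the gene of Sca1, summed to 0.292 to 0.871 and 1.096 to 1.23, with the 3 DMBA arrays above the 3 vehicle arrays. Their part in the histone values was not tested. In these bulk samples fewer cells of a type and less RNA per cell cannot be told apart.

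Vehicle 1 stood apart from the other arrays in these genes before treatment was considered. It was the only array of its slide and scan, so slide and animal cannot be told apart there. In 33 of 38 replication-dependent genes tested it lay below both other vehicle arrays, against 30.3% of all genes tested and 40.1% of the 5945 brightest genes. The median gap to the mean of vehicle 2 and 3 was -0.95 on the log2 scale over the replication-dependent genes, -0.03 over the 16 variant genes tested and 0.08 over all genes. The difference of a histone gene printed below is also given without this array where the sign turns. The same holds where the difference moves by over 1.5 times. Both refer to the probe used.

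Most probes of replication-dependent histone genes were bright. Of the 40 genes with a probe, 38 were well above background on at least 3 arrays and entered the test, and 27 of those 38 were among the 5945 brightest genes. H2bc14, which encodes an H2B, read 5.86, 6.42 and 6.69 in vehicle 1 to 3 and 6.88, 6.25 and 6.33 in DMBA 1 to 3. The groups overlapped, with DMBA 1 highest and vehicle 1 lowest. Its means were 6.33 ± 0.42 (SD, n = 3) and 6.49 ± 0.34, a difference of 0.16 (95% interval -0.61 to 0.93). H4c4, an H4 gene, read 5.499, 6.55 and 6.74 in vehicle and 6.87, 6.44 and 6.46 in DMBA, a difference of 0.33 (-0.60 to 1.25). H4c12, another H4 gene, read 5.69, 6.40 and 6.49 in vehicle and 6.64, 6.17 and 6.23 in DMBA, a difference of 0.15 (-0.58 to 0.89). In both H4 genes the order of the arrays at the ends was that of H2bc14, with DMBA 1 highest and vehicle 1 lowest. In each of these 3 genes the sign turned without vehicle 1, to -0.07 for H2bc14, -0.06 for H4c4 and -0.10 for H4c12.

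DMBA gave no difference in a histone gene that passed the test. With limma over all 17834 genes and Benjamini-Hochberg adjustment, 0 of 54 histone genes passed the threshold of 0.05, where 0% of all genes passed (adjusted p of the members from 0.992 to 0.9996). At unadjusted p under 0.05 the count was 0 of 54 as well, against 5.23% of all genes (2.74% higher, 2.50% lower). Groups did not overlap in 0 of the 54, against 10.0% of all genes (4.88% higher, 5.17% lower). Of the 38 replication-dependent genes, 26 had a positive difference and 12 a negative one, with a median of 0.16, where 48.7% of all genes were positive and their median was -0.01. Of the 16 variant genes, 10 were positive and 6 negative, with a median of 0.08. The intervals were wide: the median standard error was 0.39 for a replication-dependent gene, 0.28 for a variant gene and 0.35 for all genes.

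**Figure D1:**
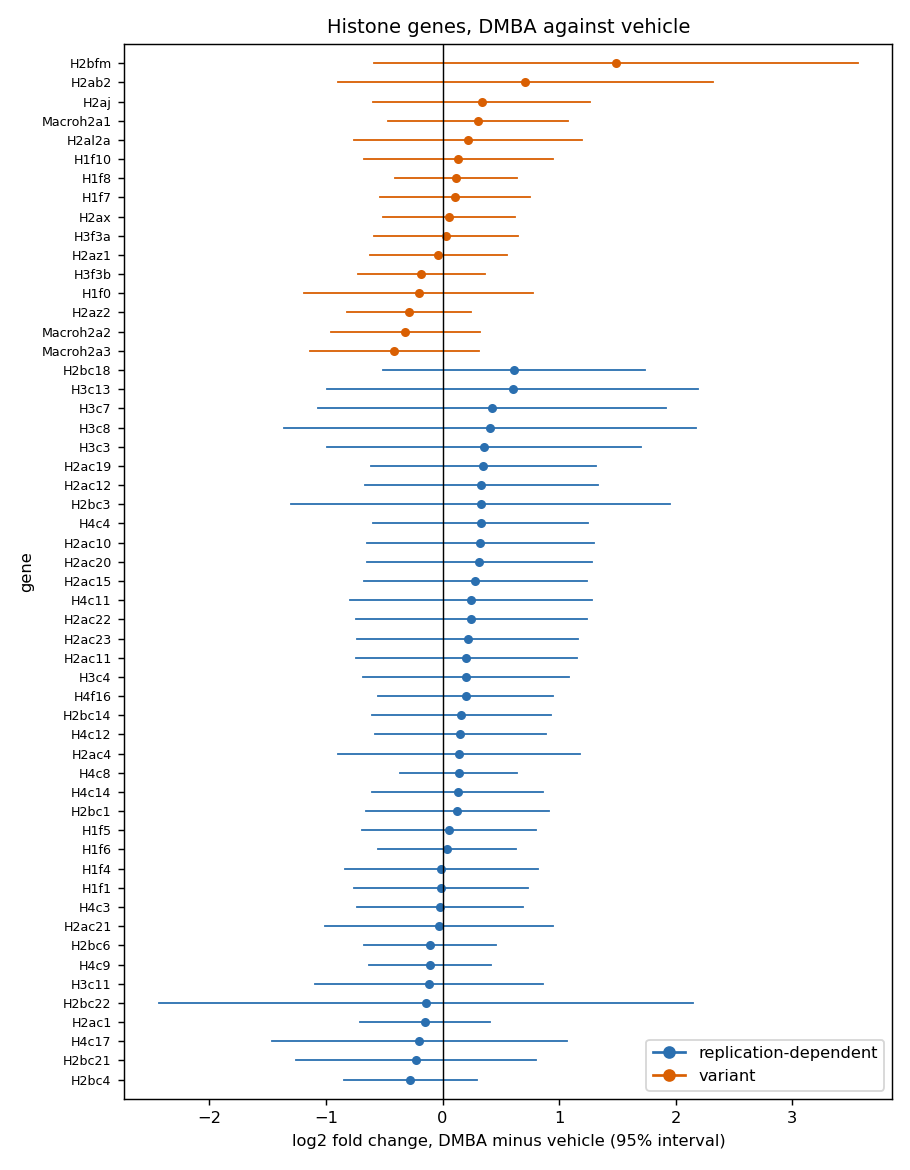
Difference between DMBA and vehicle for each of the 54 tested histone genes on the log2 scale (points, with 95% intervals from limma as lines; blue for replication-dependent, orange for variant genes). Every interval spans 0, and the values range from -0.41 for Macroh2a3 to 1.49 for H2bfm.

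The sign of the replication-dependent genes rested on vehicle 1. Over all 6 arrays 26 of 38 were positive. Without vehicle 1, 3 of 38 were positive and 35 negative, the median was -0.12 and the median over all genes 0.01. The 3 positive genes were H2bc18, H2bc22 and H4c8, with values of 0.66, 0.66 and 0.05. H2bc22, a dim gene with a mean level of -4.68, was at -0.14 over all 6 arrays. Without DMBA 1, the array on which most of these genes were highest, 18 were positive and 20 negative. Without vehicle 3 the median was 0.32, the highest value on leaving out 1 array. With vehicle 1 left out, 8 histone genes had all 3 DMBA values below both vehicle values, all of them replication-dependent (H1f1, H2ac21, H3c3, H3c7, H3c8, H3c11, H4c3 and H4c9). Groups of that size did not overlap in 19.4% of all genes in either direction, against 8 lower and 0 higher of 54 histone genes. The share of all genes that were lower was not taken. In that fit 0 histone genes passed the test.

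**Figure D2:**
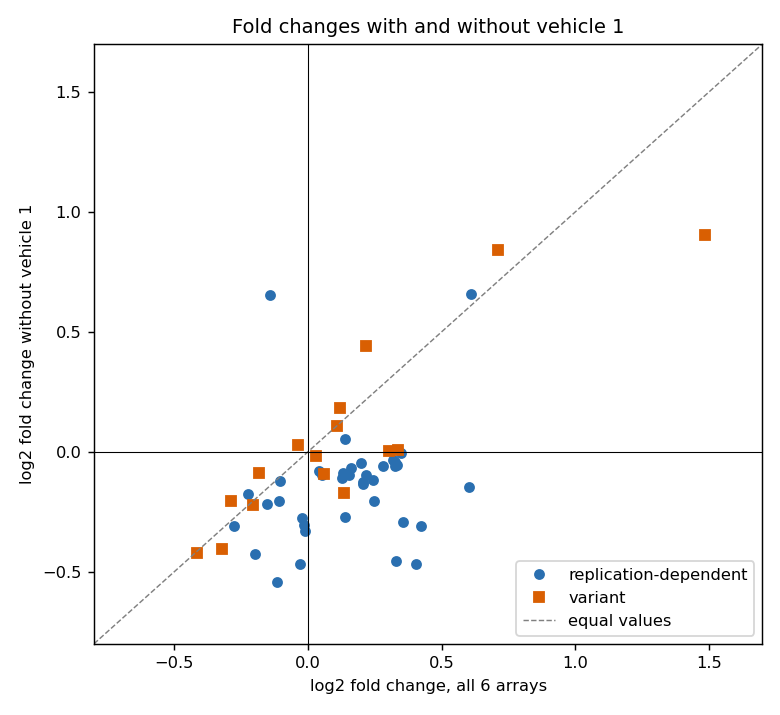
Difference between DMBA and vehicle on the log2 scale with all 6 arrays (horizontal) against the value without vehicle 1 (vertical), for 38 replication-dependent (circles) and 16 variant genes (squares). Most circles right of 0 lie below 0 on the vertical axis, while the squares lie nearer to the dashed line of equal values. On the vertical axis 3 of 38 circles are positive, among them H2bc22, which is at -0.14 with all 6 arrays.

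Most replication-dependent genes shared the order of the arrays, with vehicle 1 low. Relative to the vehicle mean of each gene, their median was -0.63, 0.25 and 0.39 on vehicle 1 to 3 and 0.51, -0.02 and 0.07 on DMBA 1 to 3, or 0.00 ± 0.56 (SD, n = 3) against 0.19 ± 0.28. The spread inside the vehicle group was thus larger than the difference between groups. The variant genes did not share this order, with medians of -0.02, 0.06 and 0.03 in vehicle and 0.08, 0.07 and -0.02 in DMBA. Vehicle 1 was the lowest of all 6 arrays in 30 of 38 replication-dependent genes, 5 of 16 variant genes and 16.3% of all genes. DMBA 1 was the highest of all 6 in 20 of 38, 4 of 16 and 29.4%. The median residual SD per gene was 0.52 in the 27 replication-dependent genes among the 5945 brightest, 0.24 in the 10 brightest variant genes and 0.29 in the 5945 brightest genes of all. Counts of genes are given as a description, since probes of near-identical genes are not independent.

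**Figure D3:**
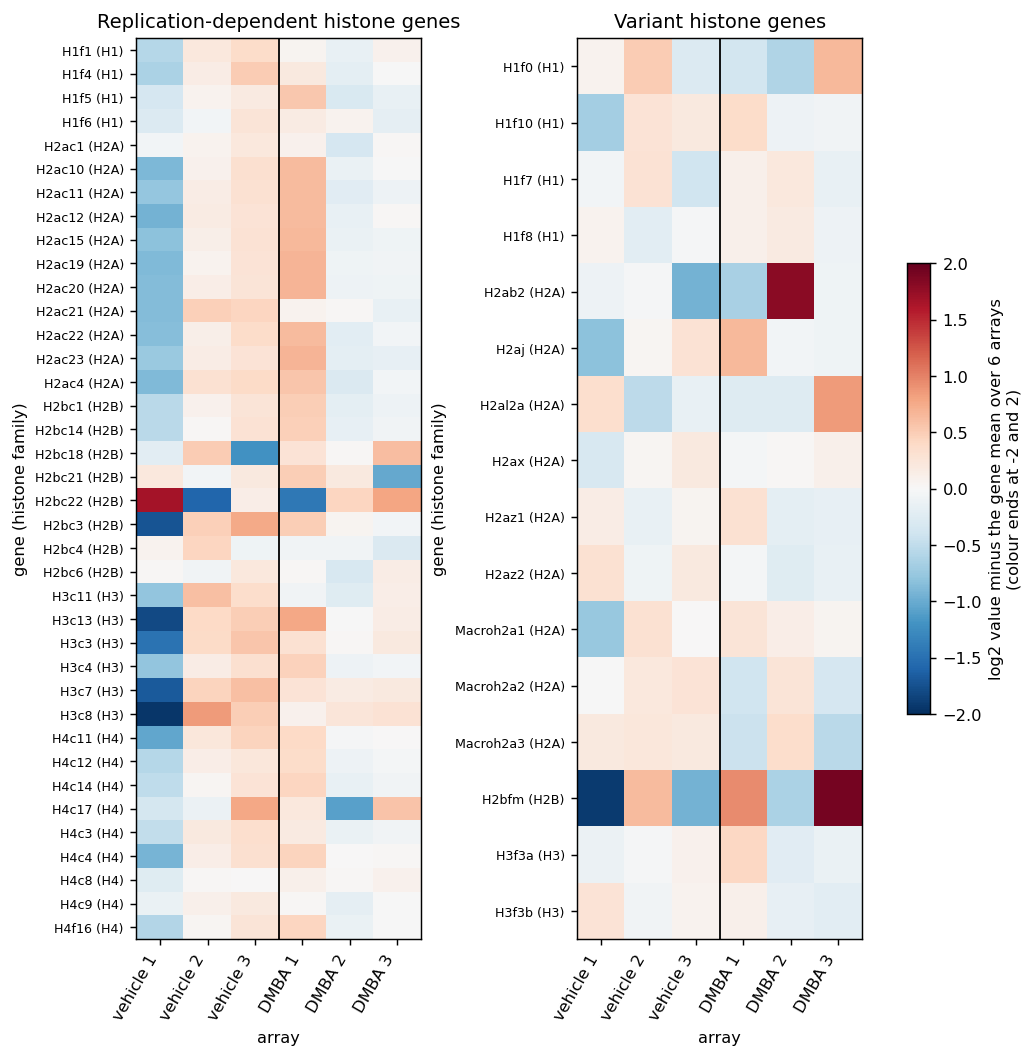
Log2 value of each tested histone gene on each array minus the mean of that gene over 6 arrays (blue below, red above, colours end at -2 and 2), with vehicle arrays left and DMBA arrays right of the black line. The left panel holds 38 replication-dependent genes, most of them blue on vehicle 1 and red on DMBA 1, and the right panel 16 variant genes with no common column.

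The H3 genes showed the widest spread. H3c8 read -1.85, 0.95 and 0.61 in vehicle and 0.19, 0.34 and 0.40 in DMBA. H3c7 read 2.17, 4.28 and 4.45 in vehicle and 4.12, 4.004 and 4.041 in DMBA. In both, vehicle 1 alone lay far below the other 5 arrays, which were within about 1 log2 unit of each other. H3c13 read 3.30, 5.499 and 5.59 in vehicle and 5.87, 5.08 and 5.24 in DMBA, a difference of 0.60 (-0.99 to 2.19) that was -0.15 without vehicle 1. Without that array H3c7 went from 0.42 to -0.31 and H3c8 from 0.41 to -0.47. The median gap of vehicle 1 to the other vehicle arrays was -2.07 over 6 H3 genes, -1.06 over 11 H2A genes, -0.73 over 9 H4 genes, -0.66 over 4 H1 genes and -0.08 over 8 H2B genes. The 8 H2B genes did not act as 1 group. Vehicle 1 lay below both other vehicle arrays in 3 of them, the bright genes H2bc1, H2bc3 and H2bc14. The same held in 27 of 27 replication-dependent genes among the 5945 brightest and in 6 of the 11 dimmer ones. Whether family or brightness goes with this was not tested. H2bc3 followed the H3 genes, at 0.84, 3.06 and 3.33 in vehicle and 3.08, 2.64 and 2.52 in DMBA, and its difference went from 0.33 to -0.45 without vehicle 1. H2bc3, H3c7, H3c8 and H3c13, and the H1 and testis genes described further on, were chosen after their values were seen.

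The highest and the lowest replication-dependent differences were both in H2B genes, though several H3 genes had larger differences in size than the lowest. H2bc18 had the highest value, reading -2.66, -1.95 and -3.67 in vehicle and -2.18, -2.43 and -1.83 in DMBA. The groups overlapped, and the difference of 0.61 had an interval from -0.51 to 1.73. Leaving out 1 array moved it between 0.16 and 1.02. H2bc4 had the lowest, reading 0.42, 0.78 and 0.27 in vehicle and 0.29, 0.29 and 0.07 in DMBA, a difference of -0.27 (-0.85 to 0.30). Neither H2bc4 nor H2bc18 read low on vehicle 1 as the brighter genes did.

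The median differences by family were 0.02 for H1, 0.25 for H2A, 0.01 for H2B, 0.38 for H3 and 0.14 for H4, and each family's groups overlapped in all of its genes. Without vehicle 1 the family medians were -0.20, -0.10, -0.12, -0.30 and -0.10 in the same order, and all 4 H1, all 11 H2A and all 6 H3 genes were negative, with 6 of 8 H2B and 8 of 9 H4 genes. These values without vehicle 1 were added after the data were seen. Of the H1 genes, which encode the linker histones, H1f5 read 4.24, 4.64 and 4.76 in vehicle and 5.11, 4.27 and 4.42 in DMBA. H1f1 and H1f4 had differences of -0.02 and -0.01, and of -0.30 and -0.33 without vehicle 1. H2bc1, the testis form of H2B, read 5.48, 6.10 and 6.27 in vehicle and 6.51, 5.82 and 5.91 in DMBA, the same order of the extreme arrays as in H2bc14. The differences of H1f5 and H2bc1 were 0.05 and 0.13, and -0.10 and -0.11 without vehicle 1. The testis linker histone gene H1f6 read between -0.10 and 0.42 and the testis H2A gene H2ac1 between 0.92 and 1.47. Whether these probes read the testis genes or their somatic copies was not tested.

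Among the variants, the gene of H2A.X, the form phosphorylated beside DNA breaks, was level. H2ax read 3.47, 3.84 and 3.99 in vehicle and 3.76, 3.83 and 3.90 in DMBA. The DMBA values lay inside the vehicle range, and the difference was 0.06 (-0.51 to 0.62). Its sign turned without vehicle 1 (-0.09), with median scaling (-0.0056) and with each array's detection rate as a covariate (-0.08).

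The genes of H2A.Z, the variant found at promoters, were bright. H2az1 read 5.05, 4.76 and 4.96 in vehicle and 5.21, 4.71 and 4.74 in DMBA, a difference of -0.04 (-0.62 to 0.55). Its sign turned without vehicle 1 (0.03). H2az2 read 3.85, 3.46 and 3.73 in vehicle and 3.49, 3.30 and 3.39 in DMBA, a difference of -0.29 (-0.82 to 0.25). H2az2 stayed negative under all 17 alternatives, from -0.40 to -0.20, and its groups overlapped by a single pair of values, vehicle 2 below DMBA 1. Its other probe gave -0.25.

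H3.3, the replacement form of H3, is encoded by H3f3a and H3f3b. H3f3a read 4.70, 4.80 and 4.91 in vehicle and 5.23, 4.60 and 4.68 in DMBA, a difference of 0.03 (-0.59 to 0.65). Its second probe gave -0.08. H3f3b read 4.37, 4.02 and 4.17 in vehicle and 4.19, 3.93 and 3.88 in DMBA, a difference of -0.18 (-0.73 to 0.36). Its other probes gave -0.27 and 0.30, the latter from a probe 6.60 log2 units dimmer than the brightest. In both genes the groups overlapped on the probe used.

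The macroH2A genes encode H2A variants with a large extra domain, found in silenced chromatin. Macroh2a1 read 2.66, 3.72 and 3.42 in vehicle and 3.68, 3.56 and 3.48 in DMBA, a difference of 0.30 (-0.47 to 1.08) that was 0.0023 without vehicle 1. Its probes disagreed, with values from -0.89 to 0.30. Macroh2a2 read 2.47, 2.68 and 2.75 in vehicle and 2.08, 2.72 and 2.13 in DMBA, a difference of -0.32 (-0.96 to 0.32). Macroh2a3, annotated as a transcribed pseudogene, read 1.99, 2.03 and 1.99 in vehicle and 1.36, 2.15 and 1.25 in DMBA, a difference of -0.41 (-1.14 to 0.31). In both, DMBA 1 and DMBA 3 lay below every vehicle array and DMBA 2 did not. Without DMBA 2 the difference was -0.53 for Macroh2a2 and -0.70 for Macroh2a3, and the latter then had an unadjusted p of 0.0360 in limma (adjusted p = 0.924).

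H2aj encodes H2A.J, a variant linked to senescent cells. Its brighter probe read 5.22, 6.08 and 6.33 in vehicle and 6.70, 5.98 and 5.96 in DMBA, a difference of 0.34 (-0.59 to 1.27) that was 0.0077 without vehicle 1. Relative to the vehicle mean these were -0.66, 0.20, 0.46, 0.82, 0.11 and 0.08, beside medians of -0.71, 0.25, 0.43, 0.79, 0.01 and 0.05 over the replication-dependent H2A genes. The dimmer probe of H2aj, 4.35 log2 units below, gave -0.43, 0.26, 0.17, -0.22, 0.63 and 0.32, so the DMBA arrays stood in another order on it. Which transcripts each probe reads was not tested.

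The linker variants were mostly dim. H1f0, a linker histone of resting and differentiated cells, read -0.99, -0.55 and -1.33 in vehicle and -1.42, -1.65 and -0.40 in DMBA, a difference of -0.20 (-1.19 to 0.78). H1f10 read -2.04, -1.09 and -1.16 in vehicle and -0.99, -1.46 and -1.44 in DMBA, a difference of 0.13 (-0.68 to 0.94) that was -0.17 without vehicle 1. H1f8, known from oocytes, read between 3.16 and 3.56 on all arrays (difference 0.12, and 0.18 without vehicle 1). H1f7, known from testis, read between -3.60 and -2.90 (difference 0.11). Both were read by 1 probe, and which transcripts these probes read was not tested.

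The germline variants of H2A and H2B were dim. The lowest value of any probe was -8.73 to -8.23 on the vehicle arrays and -8.01 to -7.32 on the DMBA arrays, and the detection rate, the percent of probes well above background, was 76.97% to 83.6% in vehicle and 69.3% to 80.9% in DMBA. The part of this in the values of dim genes was not tested. H2bfm had the largest difference of all histone genes, 1.49 (-0.59 to 3.56), reading -7.82, -5.29 and -6.86 in vehicle and -4.96, -6.55 and -4.002 in DMBA. The difference was 0.51 with normexp background correction and 0.90 without vehicle 1. Its groups overlapped, and its signal was detected on 3 arrays, 1 of vehicle and 2 of DMBA. H2ab2 read -1.87, -1.79 and -2.73 in vehicle and -2.42, 0.03 and -1.87 in DMBA, where DMBA 2 alone was high. Its difference of 0.71 was -0.01 without that array. H2al2a read -3.21, -4.07 and -3.70 in vehicle and -3.81, -3.81 and -2.71 in DMBA, a difference of 0.22 (-0.76 to 1.20). Without vehicle 1 its difference was 0.44.

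The remaining 3 members were too dim to test. H2bc23 was detected on 2 arrays, both of DMBA, and on 0 of vehicle. It read -7.17, -6.39 and -7.16 in vehicle and -4.34, -6.98 and -5.08 in DMBA, so the groups overlapped, and no fold is given. H3c1 and H2ab1 were each detected on 1 array, of vehicle, and no fold is given for them.

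Genes that process histone mRNA, carry histones or run S phase were set beside the members. Of 13 measured genes of histone mRNA processing (14 listed) 6 were higher and 7 lower, with a median of -0.03, and 0 passed. Slbp, whose product binds the histone stem-loop, read 3.10, 3.27 and 3.40 in vehicle and 2.56, 2.49 and 3.20 in DMBA, a difference of -0.50 (SE 0.28). Npat, the coactivator of histone transcription, read -3.33, -2.98 and -3.32 against -2.70, -2.86 and -2.67, a difference of 0.47 with no overlap (SE 0.22). Lsm11, part of the U7 particle that cuts histone mRNA, had a difference of 1.26 (SE 0.49) and Srrt 0.46 (SE 0.32). None of these passed in limma (adjusted p from 0.938 to 0.9996).

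Of 29 histone chaperones and exchange factors 11 were higher and 18 lower, with a median of -0.15, and 0 passed. Groups did not overlap in 6 of them, all lower after DMBA, against 5.17% of all genes in that direction. Anp32e, which removes H2A.Z, read 2.78, 2.75 and 2.82 in vehicle and 2.44, 2.37 and 2.39 in DMBA. Its groups lay clearly apart, with a difference of -0.38 (SE 0.20) and limma adjusted p = 0.985. Hjurp, the chaperone of the centromeric H3, read 2.69, 2.96 and 2.92 against 2.50, 2.51 and 2.45 (-0.37, SE 0.21). Cabin1, of the H3.3 chaperone complex, had a difference of -0.74 (SE 0.34) with groups apart, and Atrx, which loads H3.3 at repeats, -0.58 (SE 0.30) with groups that overlapped.

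Of 30 S phase genes 15 were higher and 15 lower, with a median of 0.00 and 0 passing. Their median on each array relative to the vehicle mean was -0.02, -0.02 and 0.08 in vehicle and -0.01, -0.17 and -0.08 in DMBA. In these medians vehicle 1 and DMBA 1 did not stand out as they did in the replication-dependent histone genes. The lists were not matched for brightness. DMBA 1 was the highest of all 6 arrays in 7 of the 30 (23.3%), against 29.4% of all genes. Among the 7 was the bright gene Ung (7.13, against 6.51 to 6.67). In Mki67, also bright, DMBA 1 was the lowest (2.83, against 4.66 to 4.91). DMBA 1 also had the lowest 75th percentile of intensity (1355, against 1758 to 2274). The part of this in the values was not tested. Top2a, which untangles DNA in dividing cells, had a difference of -0.57 (SE 0.27), Ccne1, the G1/S cyclin, 0.43 (SE 0.24), E2f2 -0.44 (SE 0.27) and Cdk2 -0.42 (SE 0.26). Groups did not overlap in 3 of the 30, against 10.0% of all genes. Ccne1 was higher, and Mcm4 (-0.31, SE 0.20) and Mcm6 (-0.29, SE 0.22), subunits of the replicative helicase, were lower.

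**Figure D4:**
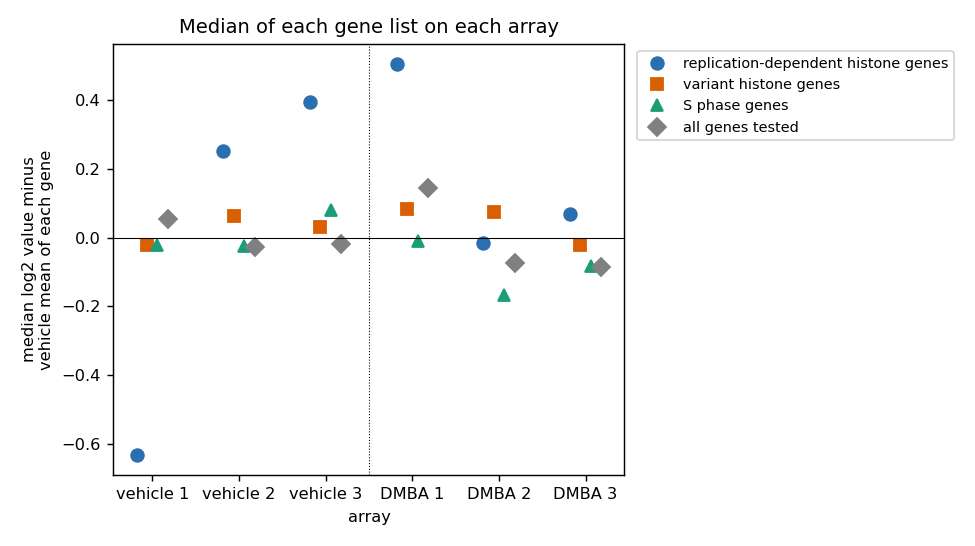
Median over each gene list of the log2 value minus the vehicle mean of the gene, for 38 replication-dependent and 16 variant histone genes, 30 S phase genes and all 17834 genes, on each of 6 arrays. The blue circles run from -0.63 on vehicle 1 to 0.51 on DMBA 1, while the other lists stay between -0.17 and 0.14.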

How the data were processed

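RNA of sorted cells from 6 mice was labelled with Cy3 and read on 1-colour Agilent arrays, with spots extracted by Agilent Feature Extraction 10.7.1.1 per the file headers and the submitters' processing notes. The deposited scanner files hold background-corrected spot intensity, with well-above-background flags per spot, and the deposited matrix holds intensity scaled to the 75th percentile (correlation across probes with the log2 scanner values from 0.99992 to 0.99998). In R 4.3.3 with limma 3.58.1, log2 intensity minus the log2 75th percentile was computed, 3671 control spots and outlier spots were left out, which left 45 probes without a value on some array, and spots of a probe were averaged. Probes well above background on at least 3 of 6 arrays were kept. The kept probe with the highest mean stood for each gene. The p-values come from lmFit and eBayes (two-sided), adjusted over 17834 genes at 0.05. Probes were named by RefSeq accession through GRCm38.p6, while the arrays' build is mm9, so coordinates are given for the printed promoters alone, on GRCm38.p6. The rule for named genes took each variant gene tested, the 3 brightest replication-dependent genes, the largest difference in each direction, and up to 4 genes per list, and members whose groups did not overlap, of which there were 0. Members and lists were chosen with earlier results of these data known. The number of arrays sets the precision. The p-values weigh the difference between groups against the spread between arrays of 1 mouse each, in which animal and array cannot be told apart. No spot was saturated and no 2 arrays held identical values.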

Additional observations from a re-analysis of the deposited data

How the results depend on the processing

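No histone gene passed the threshold under any of 17 alternatives. In all of them the median of the replication-dependent genes moved by less than the SD between arrays of its group medians, 0.44 pooled over both groups. It ranged from -0.12 to 0.32 when each array was left out. That SD holds the gap of vehicle 1 itself, so it is a wide measure for leaving that array out. The median was negative without vehicle 1, with the slide block (-0.12) and without DMBA 1 (-0.020). The slide block is not a separate check, since vehicle 1 is alone on its slide and the value is the same as without it. Counts of histone genes with groups apart were 2 with quantile normalization and 2 with median scaling (10.98% and 11.2% of all genes), and 1 to 8 on leaving out an array (18.4% to 24.4% of all genes). The median of the variant genes was 0.019 with median scaling, 0.017 with the mean of all kept probes, -0.0085 with slide as a block (the same value as without vehicle 1) and 0.14 with the percent above background as a covariate, and -0.019 to 0.11 on leaving out an array. Histone genes at unadjusted p numbered 0 to 2 then, the 2 being H2bfm and Macroh2a3 without DMBA 2 (5.32% of all genes), and genes past the threshold 0 to 1, the 1 without vehicle 2. The sign turned in H3f3a with quantile normalization (-0.050), median scaling (-0.032), the mean of probes (-0.024) and the slide block (-0.019). It turned in Macroh2a1 with the mean of probes (-0.23) and in H2ax with median scaling (-0.0056), the slide block (-0.091) and the covariate (-0.083), which also moved the median of all genes to 0.10. With the slide block H1f10 was at -0.17, H2az1 at 0.030, H4c4 at -0.058, H2bc14 at -0.069 and H4c12 at -0.10, and with the covariate H2az1 was at 0.18. On leaving out an array, ranges crossing 0 were -0.17 to 0.31 for H1f10, -0.091 to 0.17 for H2ax, -0.20 to 0.053 for H2az1, -0.17 to 0.15 for H3f3a, -0.058 to 0.57 for H4c4, -0.069 to 0.34 for H2bc14, -0.10 to 0.30 for H4c12, -0.067 to 0.28 for H1f7, -0.58 to 0.041 for H1f0, -0.013 to 1.21 for H2ab2 and -0.15 to 0.44 for H2al2a. The causes were not tested, other than that these fits use fewer samples, other probes or other scales. With replicate number as a block the medians stayed at 0.16 and 0.08 and 0 histone genes passed. Deviations of same-numbered arrays from their group means had correlations of 0.018, -0.020 and 0.058. With 3 arrays per group such values cannot show whether the numbers pair the mice. Normexp used the median spot signal in place of the mean signal that had been planned. Dim genes near the floor, such as H2bfm, are limited by signal over background.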

Other observations

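Replication-dependent genes of different chromosomes are given side by side, and the difference between them was not tested. The 30 tested genes of the large cluster on chromosome 13 had a median difference of 0.15, with 20 positive, and the 7 of the cluster on chromosome 3 had a median of 0.32, with 5 positive. Without vehicle 1 these medians were -0.13 and -0.09, with 2 and 1 positive. Relative to the vehicle mean, the chromosome 13 genes had medians of -0.63, 0.24 and 0.39 on vehicle 1 to 3 and 0.49, -0.08 and 0.06 on DMBA 1 to 3, and the chromosome 3 genes -0.70, 0.29, 0.41, 0.58, 0.09 and 0.07. H4f16, the lone H4 gene on chromosome 6, read 3.50, 4.12 and 4.34 in vehicle and 4.52, 3.96 and 4.08 in DMBA, so vehicle 1 was lowest and DMBA 1 highest there too. The 11 dimmer replication-dependent genes had array medians of -0.17, 0.10 and 0.15 in vehicle and 0.11, 0.09 and 0.09 in DMBA, while their median difference was -0.11, with 4 positive and 7 negative. Of the 27 brighter genes 22 were positive, with a median of 0.20. Without vehicle 1 the medians were -0.18 and -0.12, with 3 of 11 and 0 of 27 positive.

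Of the 10 members with more than 1 kept probe, H3f3a, H3f3b and Macroh2a1 had probes of opposite sign. H4c14 had probes 4.39 log2 units apart with differences of 0.13 and 0.45, and H2az2 probes 5.06 apart with -0.29 and -0.25. Without vehicle 1 the brighter probe of H4c14 was at -0.09.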
